A study of Homo sapiens with 2 samples.

Results

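The genes described here encode parts of the centrosome and its centrioles, and the group was drawn up around CNTLN, whose RNA signal was higher in myeloma cells with added HIF-2α. They were chosen by gene symbol: every symbol made of CEP and a number (also with the ending L1 or P1), together with CNTLN, CNTROB, NINL, NIN, PCNT, PCM1, PLK4, SASS6, STIL, CENPJ, OFD1, CDK5RAP2, ODF2, CETN2 and CETN3. The rule found 49 of the 18377 genes that have a probe set with a single symbol, 34 by the CEP pattern and 15 by name, and 40 of them passed the filter on dim signals described next. CENPJ stands in the annotation under its newer symbol, CPAP. CNTLN was singled out from its measured difference between these same arrays, so its values and the contrast of CNTLN with the other 48 genes are a description and support nothing further.

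RNA of LP-1, a human myeloma line long kept in culture, was hybridised to 2 whole-transcript Affymetrix arrays. The vector control (LP-1-pRUF) carried pRUF-IRES-GFP with no insert. The cells of the HIF2A array (LP-1-HIF2A) carried pRUF-IRES-GFP-HIF2A, which holds the full-length human cDNA of HIF-2α. HIF-2α, the product of EPAS1, is a transcription factor subunit that oxygen destabilises. Both lines were made by infection and are stable. The sources used here do not say whether they are clones or pools, or how cells with the vector were selected. Since each group is a single array, there is no replicate check, no p-value or standard error is given, and a difference between these cultures cannot be told apart from the effect of HIF-2α. Signals are log2 values, differences are HIF2A minus vector control in log2 units, and a gene passed the filter where at least 1 array reached 4.01, the median of the probe sets' mean signals.

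EPAS1 was measured at 3.70 with the empty vector and at 9.05 with the HIF2A vector. Of 10 plasma cell markers 9 passed the filter, 4 higher and 5 lower in the HIF2A array. JCHAIN had 12.59 in the vector control and 12.55 in the HIF2A array, IRF4 9.69 and 9.40, SDC1 7.78 and 7.53, and CD38 7.58 and 7.64. Higher besides CD38 were MZB1, at 8.47 and 8.91, XBP1, at 10.13 and 10.47, and PRDM1, at 8.13 and 8.24. At least 2-fold lower were 2 of the 9, SLAMF7 with 6.63 and 4.24 and TNFRSF17 with 8.71 and 7.68. Of 25 markers of B cells, T and NK cells, myeloid cells and stromal cells 7 passed, and their highest signals were 5.03 in the vector control and 4.81 in the HIF2A array. The sum of their 25 signals was 88.8 in the vector control and 89.0 in the HIF2A array. As a measure of background, 339 olfactory receptor genes had a 95th percentile of 3.58 in both arrays.

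A centrosome is a pair of centrioles, short cylinders of microtubules, surrounded by pericentriolar material that nucleates microtubules. New centrioles grow beside the old ones in each cell cycle under the kinase PLK4, a linker holds the old centrioles together until mitosis, and the older centriole carries appendages that let it anchor microtubules and found a cilium. Many of the encoded proteins act at these steps, and others in centriolar satellites and cilia or at the end of cell division. For 6 of the genes no role was assigned here. CNTLN encodes centlein, a protein at the base of the centrioles that takes part in the linker with C-NAP1, the product of CEP250, and with CEP68.

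Starts of 44 of the 49 genes were found in the RefSeq promoter table (GRCh38.p14), and CETN3, CEP78, CEP15, CEP250 and PCM1 are not in it. The 250 bases before the start are shown for CNTLN and for the 4 other genes with a single listed start whose signals were at least 1.5-fold apart, since these are among the members with the largest differences. The 1.5-fold set also holds PLK4, left out because several starts are listed for it (1 of its 3 windows holds a match), and CETN3. HIF dimers bind a short core, and the letters ACGTG and GCGTG were searched on both strands; capitals mark the matches, which do not overlap here. The stretches are chr9:17134790-17135039, plus strand for CNTLN, chr3:101724364-101724613, plus strand for CEP97, chr1:47314148-47314397, minus strand for STIL, chr17:64506727-64506976, plus strand for CEP95 and chr10:93496362-93496611, plus strand for CEP55.
CNTLN: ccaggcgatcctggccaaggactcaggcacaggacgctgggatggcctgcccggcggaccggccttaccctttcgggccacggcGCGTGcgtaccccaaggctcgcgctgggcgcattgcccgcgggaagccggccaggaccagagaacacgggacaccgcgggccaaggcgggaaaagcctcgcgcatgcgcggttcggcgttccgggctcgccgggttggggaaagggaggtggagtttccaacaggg
CEP97: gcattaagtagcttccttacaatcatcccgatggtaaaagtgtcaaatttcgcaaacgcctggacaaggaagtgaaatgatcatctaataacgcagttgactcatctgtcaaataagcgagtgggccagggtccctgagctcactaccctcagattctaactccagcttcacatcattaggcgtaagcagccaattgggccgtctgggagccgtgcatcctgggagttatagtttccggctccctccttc
STIL: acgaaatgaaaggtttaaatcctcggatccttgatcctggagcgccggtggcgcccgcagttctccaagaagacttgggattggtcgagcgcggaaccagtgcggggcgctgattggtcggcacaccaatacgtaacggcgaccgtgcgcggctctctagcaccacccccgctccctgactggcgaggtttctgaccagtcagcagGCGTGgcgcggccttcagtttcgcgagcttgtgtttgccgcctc
CEP95: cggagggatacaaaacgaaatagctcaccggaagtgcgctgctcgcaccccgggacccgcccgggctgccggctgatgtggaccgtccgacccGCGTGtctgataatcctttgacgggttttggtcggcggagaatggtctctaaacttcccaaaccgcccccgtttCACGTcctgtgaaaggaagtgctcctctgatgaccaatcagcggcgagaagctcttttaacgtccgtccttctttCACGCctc
CEP55: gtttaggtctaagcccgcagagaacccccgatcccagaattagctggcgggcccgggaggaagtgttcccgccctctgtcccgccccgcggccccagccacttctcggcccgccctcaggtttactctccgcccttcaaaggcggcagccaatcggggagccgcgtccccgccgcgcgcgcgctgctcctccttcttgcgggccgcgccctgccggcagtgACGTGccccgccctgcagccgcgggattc

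In CNTLN the 1 match begins 166 bases before the start, in STIL 44 and in CEP55 29, while CEP97 has 0 matches and CEP95 has 3. A match was found for 27 of the 36 members past the filter that have a listed start, or 75%, and for 64.9% of the 9138 genes past the filter with one. Over all 35116 listed starts, of which a gene can have several, 43.2% of the windows of this length held a match. Matches were present in 14 of 21 members with a higher signal in the HIF2A array and in 13 of 15 with a lower one. These letters are common in promoters rich in G and C, and the counts describe the windows without saying whether a factor binds there.

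The CNTLN signal was 4.31 in the vector control and 6.32 in the HIF2A array, 2.01 log2 units or 4.03-fold higher. In the vector control it was 37th of the 49 genes in order of signal, and in the HIF2A array 4th. Probe sets differ in how well they bind, so this order describes the signals and not the amounts of RNA. CNTLN ranked 6th from the top among the differences of the 11469 genes past the filter, and the next member, CEP97, lay 1.34 log2 units lower. The other linker members had no such difference. CEP250, whose product anchors the linker at the base of the centrioles, had signals of 4.21 and 4.20, the vector control first, and CEP68, a linker protein removed at mitosis, had 4.85 and 4.66.

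Other linker genes were listed apart from the rule, and 5 of the 6 that were measured passed the filter. CROCC, which encodes the fibre protein rootletin, had 4.50 in the vector control and 4.73 in the HIF2A array. LRRC45, a further linker protein gene, had 4.22 and 4.45. NEK2, the kinase that dissolves the linker before mitosis, had 5.16 and 5.63, a difference of 0.47. The 5 include the CROCC pseudogenes CROCCP3 and CROCCP2, whose probes may share sequence with CROCC and which differed by -0.15 and -0.35. None of these 5 genes was 1.5-fold apart, where 5.67% of all genes past the filter were that much higher and 4.76% lower. Their median difference was 0.23, which came to 0.089 with 32 added on the linear scale, 0.065 without a filter and 0.025 with the neighbours' medians subtracted.

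**Figure D1:**
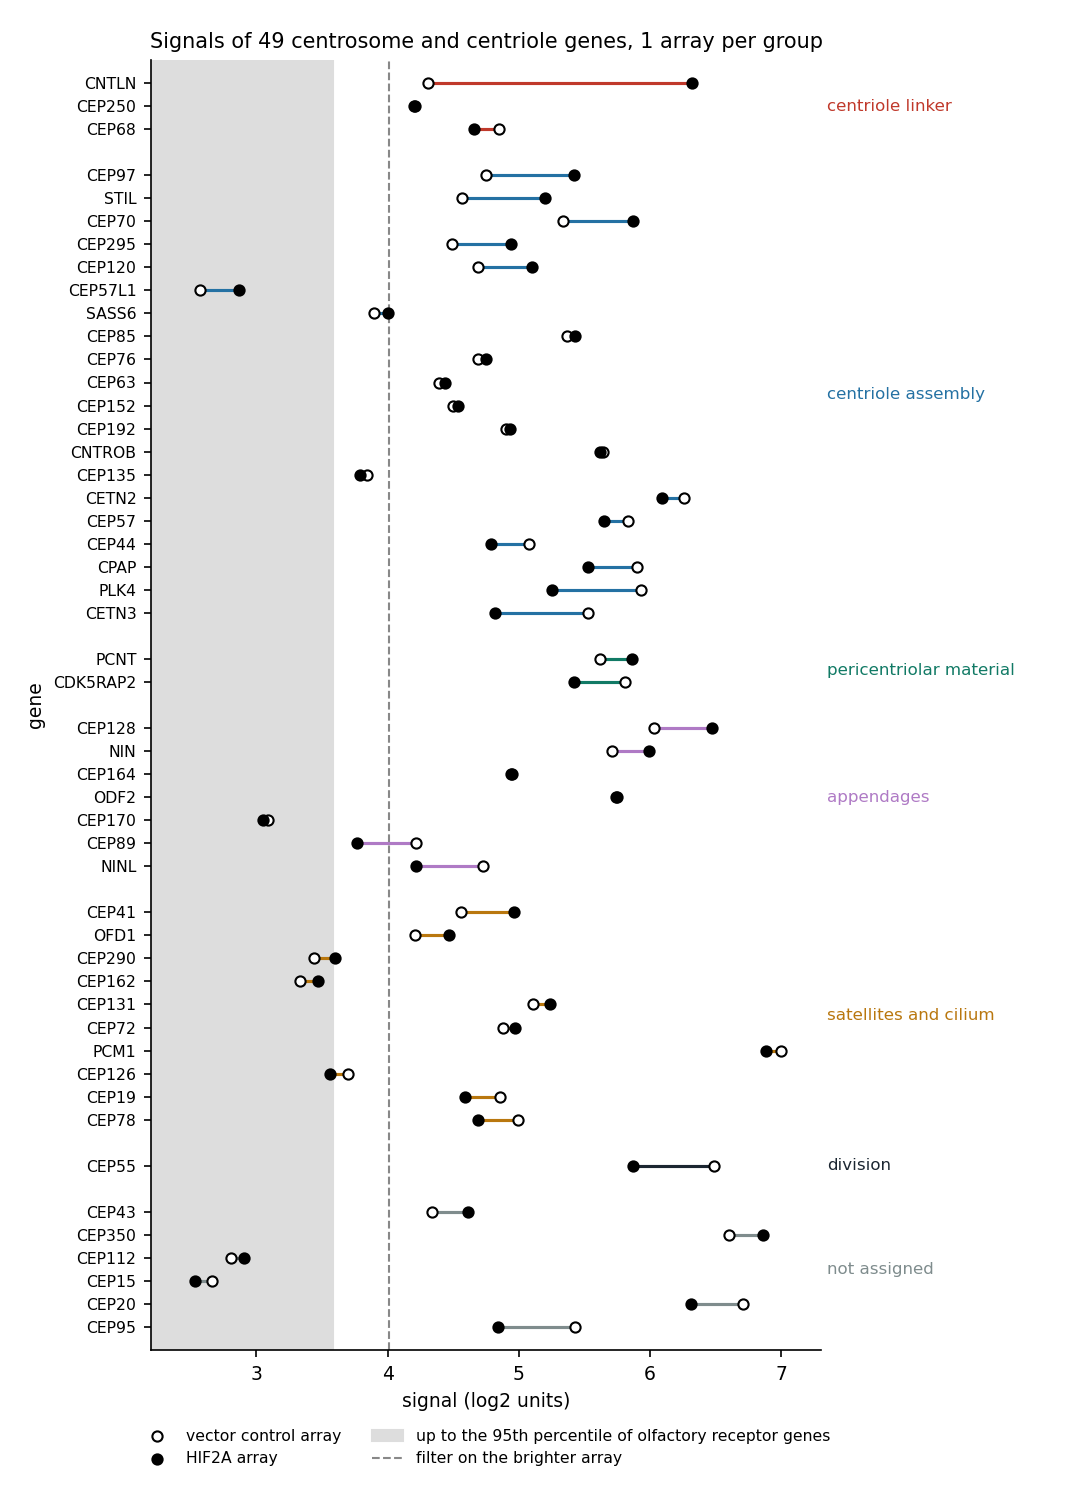
Signals in log2 units (horizontal axis) of the 49 genes, grouped by role, with open circles for the vector control array and filled circles for the HIF2A array, 1 array each. CNTLN spans 4.31 to 6.32, and no other gene has circles more than 0.71 apart.

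Across the 40 members past the filter, 21 were higher and 19 lower in the HIF2A array. Their median difference was 0.02, against 0.03 over all 11469 genes, and its sign turned with a stricter filter on dim signals (-0.12). CNTLN was the 1 member at least 2-fold higher, where 0.706% of all genes past the filter were, and 0 members were at least 2-fold lower, against 0.732% of all genes. At least 1.5-fold higher were 3 members, or 7.5%, namely CNTLN, CEP97 and STIL, against 5.67% of all genes. At least 1.5-fold lower were 4 members, or 10%, namely CETN3, PLK4, CEP55 and CEP95, against 4.76% of all genes. With 32 added to both signals on the linear scale, which shrinks the differences of dim genes, CNTLN alone was still at least 1.5-fold apart. Of all 11422 genes past the filter in that setting, 138 were at least 1.5-fold higher and 143 lower. Without CNTLN the median was 0.01 and the range ran from -0.71 to 0.67. The median size of a difference, whatever its sign, was 0.28 among the members and 0.23 among all genes.

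The robust SD of all differences, from their median absolute deviation, was 0.34. Of the 40 members 8 were higher by more than that, or 20%, against 18% of all genes, and 9 lower by more, or 22.5%, against 14.2% of all genes. In both arrays 39 of the 40 members reached the filter, and CEP89 reached it in the vector control alone. Just above the filter lay CEP250, with 4.21 and 4.20, and just below it SASS6, with 3.90 and 4.0.

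**Figure D2:**
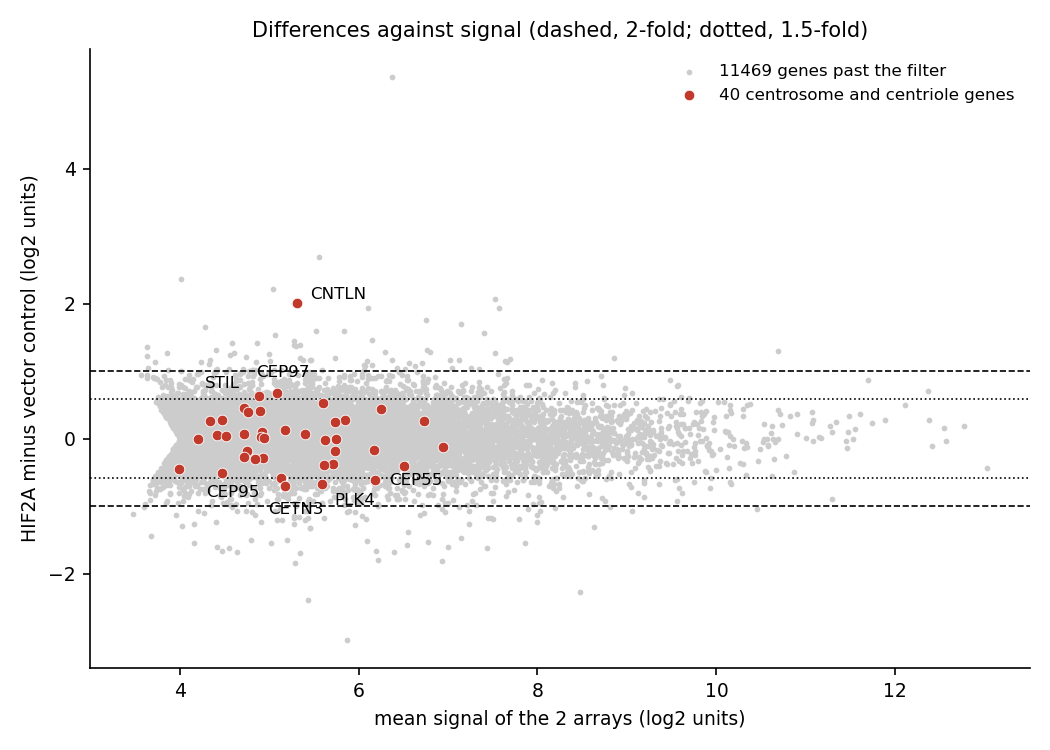
Difference between the arrays (vertical axis, HIF2A minus vector control, log2 units) against the mean signal of the 2 arrays (horizontal axis, log2 units) for the 11469 genes past the filter in grey and the 40 centrosome and centriole genes in red. CNTLN at 2.01 lies outside the dashed 2-fold lines, and CEP97, STIL, CETN3, PLK4, CEP55 and CEP95 lie between the 1.5-fold and the 2-fold lines.

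Centriole assembly was the largest role, with 20 genes of which 17 passed the filter. Of these 10 were higher and 7 lower, with a median of 0.04 (-0.18 with the filter at the 75th percentile). In each direction 2 were at least 1.5-fold apart, or 11.8%, against 5.67% of all genes higher and 4.76% lower. PLK4, the kinase that starts the growth of a new centriole, was measured at 5.93 in the vector control and 5.25 in the HIF2A array, 1.60-fold lower. STIL, which PLK4 phosphorylates and which recruits the cartwheel protein SASS6, had 4.57 and 5.20, 1.55-fold higher. PLK4 lies among chromosome 4 genes with lower signals, and with the median of its 20 neighbours (-0.54) subtracted its difference was -0.14, no longer 1.5-fold, while that of STIL was 0.60. SASS6, the cartwheel protein itself, stayed just under the filter, with a difference of 0.10.

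The genes of the proteins that bring PLK4 to the centriole differed little in RNA signal. CEP152 had 4.50 in the vector control and 4.54 in the HIF2A array, CEP192 had 4.90 and 4.93, and CEP63, which binds CEP152, had 4.39 and 4.44. CEP57, another partner of CEP63 and CEP152, had 5.83 and 5.65. CEP85, which binds STIL, had 5.37 and 5.43.

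Genes for the length and the maturation of the centriole were split in direction. CEP97, whose product caps the far end of the centriole together with CP110, had 4.75 in the vector control and 5.42 in the HIF2A array, 1.59-fold higher and second to CNTLN among the members. CCP110, the gene of that partner, picked after its value was seen, had 4.45 in both. CEP120, needed for elongation, had 4.69 and 5.10. CEP295, which acts when a new centriole becomes able to gather pericentriolar material, had 4.49 and 4.94. On the other side CPAP, which sets the length of the centriolar microtubules, had 5.90 and 5.53. CEP44, which acts as a centriole matures into a centrosome, had 5.08 and 4.79. With the neighbours' medians subtracted CEP44 turned to 0.32 and CEP120 came to 0.19, while CPAP stayed lower at -0.365.

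The genes of the calcium-binding centrins both had lower signals in the HIF2A array, by different amounts. CETN3 had 5.53 in the vector control and 4.82 in the HIF2A array, a 1.64-fold lower signal and the most negative difference of the members. CETN2, which also acts in DNA repair, had 6.26 and 6.09. Of the remaining assembly genes CEP70, whose product binds gamma-tubulin, had 5.34 and 5.87, CEP76, which limits repeated duplication, had 4.69 and 4.75, and CNTROB, a protein of the younger centriole, had 5.64 and 5.62.

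Among the scaffold proteins of the pericentriolar material, PCNT, which encodes pericentrin, had 5.62 in the vector control and 5.86 in the HIF2A array, and its partner CDK5RAP2 had 5.81 and 5.42. With CEP152 and CEP192, which serve there too, the 4 genes showed a median difference of 0.035. None of the 4 was 1.5-fold apart, against 5.67% of all genes past the filter higher and 4.76% lower. The gamma-tubulin ring complex, the nucleator these scaffolds recruit, was listed apart. All 10 of its measured genes passed the filter, 6 higher and 4 lower, with a median of 0.23 (0.13 with 32 added on the linear scale). NEDD1, which attaches the complex to the centrosome, had 5.73 in the vector control and 6.43 in the HIF2A array, and TUBG1, the main gamma-tubulin gene, had 9.38 and 9.82. The small subunit genes MZT2A and MZT2B lay the other way, at 7.65 and 7.14 and at 4.66 and 3.95. MZT2A and MZT2B are near-identical copies, and their probe sets may share sequence.

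The appendage genes, 6 of 7 past the filter, centred on 0, with 3 higher and 3 lower, but on 0.28 under a 75th percentile filter and on -0.17 with neighbours subtracted. Of the subdistal appendages, which anchor microtubules, CEP128 had 6.03 in the vector control and 6.47 in the HIF2A array, NIN, which encodes ninein, 5.71 and 5.99, and ODF2 5.75 and 5.74. The ninein-like gene NINL differed the other way from NIN, at 4.73 and 4.22. Of the distal appendages, which dock the centriole to the membrane, CEP89 had 4.22 and 3.77, and CEP164 had 4.94 and 4.95. CEP170 was at background in both arrays, at 3.09 and 3.05.

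Genes of the centriolar satellites and of the cilium numbered 10, of which 7 passed the filter, 4 higher and 3 lower. Their median was 0.09 (-0.015 with neighbours subtracted). Of the 7 genes 0 were 1.5-fold apart, against 5.67% of all genes past the filter higher and 4.76% lower. PCM1, the scaffold of the satellites, had the highest signal of all members, 7.0 in the vector control and 6.88 in the HIF2A array. The satellite genes CEP131 and CEP72 had 5.11 and 5.24 and 4.88 and 4.97. OFD1, which acts at the far end of the centriole and in satellites, had 4.21 and 4.47. CEP41, a ciliary gene, had the largest difference of this group, at 4.56 and 4.96. CEP78 and CEP19 were lower, with differences of -0.30 and -0.27. CEP290, CEP162 and CEP126 did not pass the filter.

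CEP55 acts at the end of cell division, when it brings the abscission machinery to the bridge between daughter cells. Its signal was 6.49 in the vector control and 5.87 in the HIF2A array, 1.54-fold lower. CEP350, CEP43 and CEP20 encode related or interacting proteins of the centriole and the satellites, and they did not share a direction, with 6.60 and 6.86 for CEP350, 4.34 and 4.61 for CEP43, and 6.71 and 6.31 for CEP20, the vector control first. CEP95 had 5.43 and 4.84, a 1.51-fold lower signal.

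The 9 members that did not pass the filter are CEP57L1, CEP290, CEP162, SASS6, CEP112, CEP170, CEP135, CEP15 and CEP126. Their signals ran from 2.53 to 4.0. In 5 of the 49 genes both arrays lay at or under the olfactory receptor level, so no difference is given for them.

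Several members are made in a particular part of the cell cycle, so cell cycle genes were listed beside them. Of the 19 S phase genes past the filter 8 were higher and 11 lower, around a median of -0.05, led by MCM3 and CDC6 at 0.65 and 0.50 and, on the low side, CCNE2 and PCNA at -0.92 and -0.64. Of the 16 genes of G2 and M phase past the filter 10 were higher and 6 lower, around a median of 0.05 (-0.10 with neighbours subtracted), led by KIF20A and BUB1 at 0.85 and 0.72, with CCNA2 and CCNB2 at -0.57 and -0.46. The 14 mitotic kinase and spindle pole genes past the filter, 9 higher and 5 lower, centred on 0.16 (0.05 under each other filter), with NEK6 and TACC3 at 0.72 and 0.60 and AURKB and TACC1 at -0.42 and -0.30. PLK4, STIL and CEP55 were thus measured among cell cycle genes that lay on both sides, and the part of cell cycle distribution in their differences was not tested.

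Other centriole and appendage genes outside the rule, 35 past the filter, comprised 18 higher, 16 lower and 1 at 0, around a median of 0.04 (-0.16 with the filter at the 75th percentile). KIAA0753 and TBC1D31, both of the satellites, had the largest positive differences at 0.64 and 0.53, and the augmin subunit gene HAUS8 and the distal appendage gene SCLT1 the largest negative ones at -0.88 and -0.51. The median of the genes around SCLT1 was -0.58. The 20 ciliary transport genes past the filter, 8 higher, 11 lower and 1 at 0, centred on -0.04 (-0.18 with the filter at the 75th percentile), with KIFAP3 and IFT172 at 0.74 and 0.50 and BBS2 and IFT46 at -0.72 and -0.66. In each of these lists 0 genes past the filter were at least 2-fold apart, against 0.706% of all genes higher and 0.732% lower. IFT57, a ciliary transport gene that did not pass, had 3.73 in the vector control and 2.69 in the HIF2A array.

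**Figure D3:**
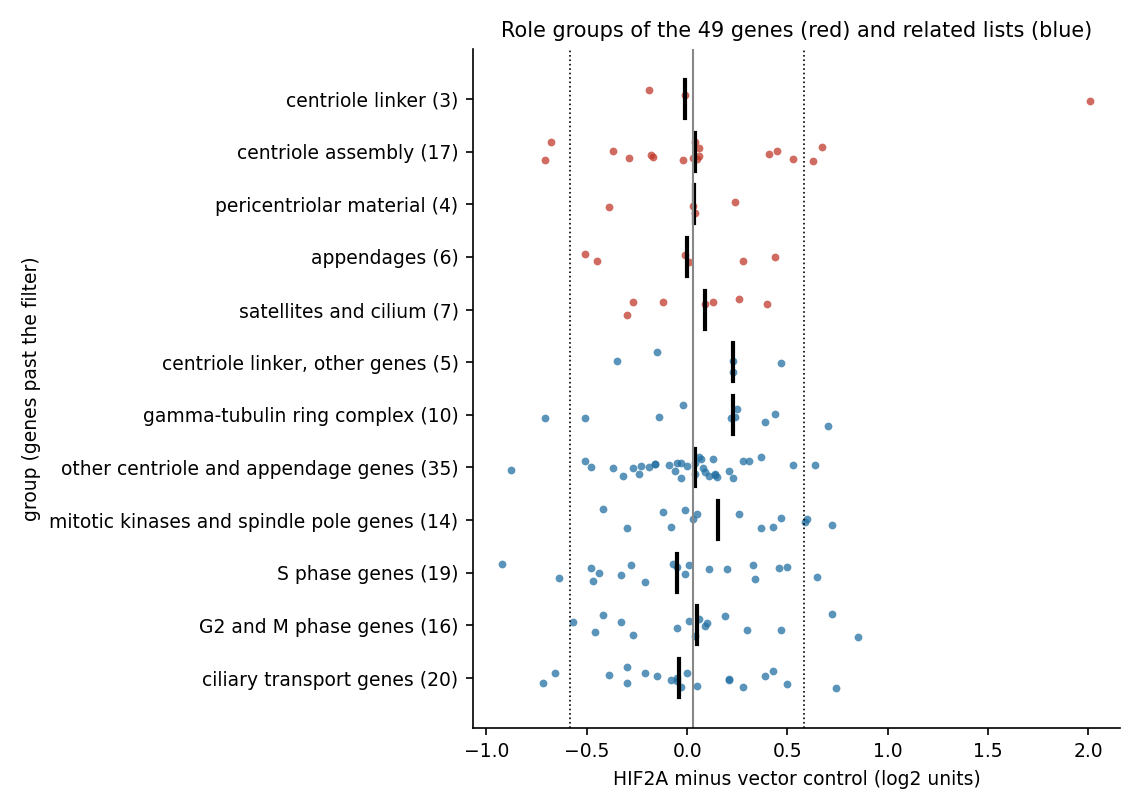
Differences in log2 units (horizontal axis, HIF2A minus vector control) of genes past the filter in 5 role groups of the 49 genes (red; CEP55 and the genes without an assigned role are not drawn) and in related lists (blue), with group sizes in brackets, black bars at group medians, dotted lines at 1.5-fold and a grey line at 0.03, the median of all genes. Each median drawn lies between -0.05 and 0.23, and CNTLN at 2.01 stands apart.

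In some stretches the median difference of neighbouring genes lay away from that of all genes, as around CEP44 (-0.61). Each member was therefore set beside its neighbourhood. This was the median difference of the 20 nearest genes past the filter on its chromosome, in the gene order of the RefSeq table. For CNTLN, on chromosome 9, that median was 0.13. Of the 10 nearest measured genes on each side, dim ones included, 9 passed the filter, and their differences ran from -0.50 to 0.81 with a median of 0.12. The genes next to CNTLN are BNC2, with 3.42 in the vector control and 3.37 in the HIF2A array, and SH3GL2, with 4.42 and 4.55. Further out, CCDC171 had 2.71 and 3.16, PSIP1 4.71 and 4.72, ADAMTSL1 3.80 and 3.37, and SAXO1 2.73 and 2.95. The largest difference within that span after CNTLN was that of ZDHHC21, 0.81.

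**Figure D4:**
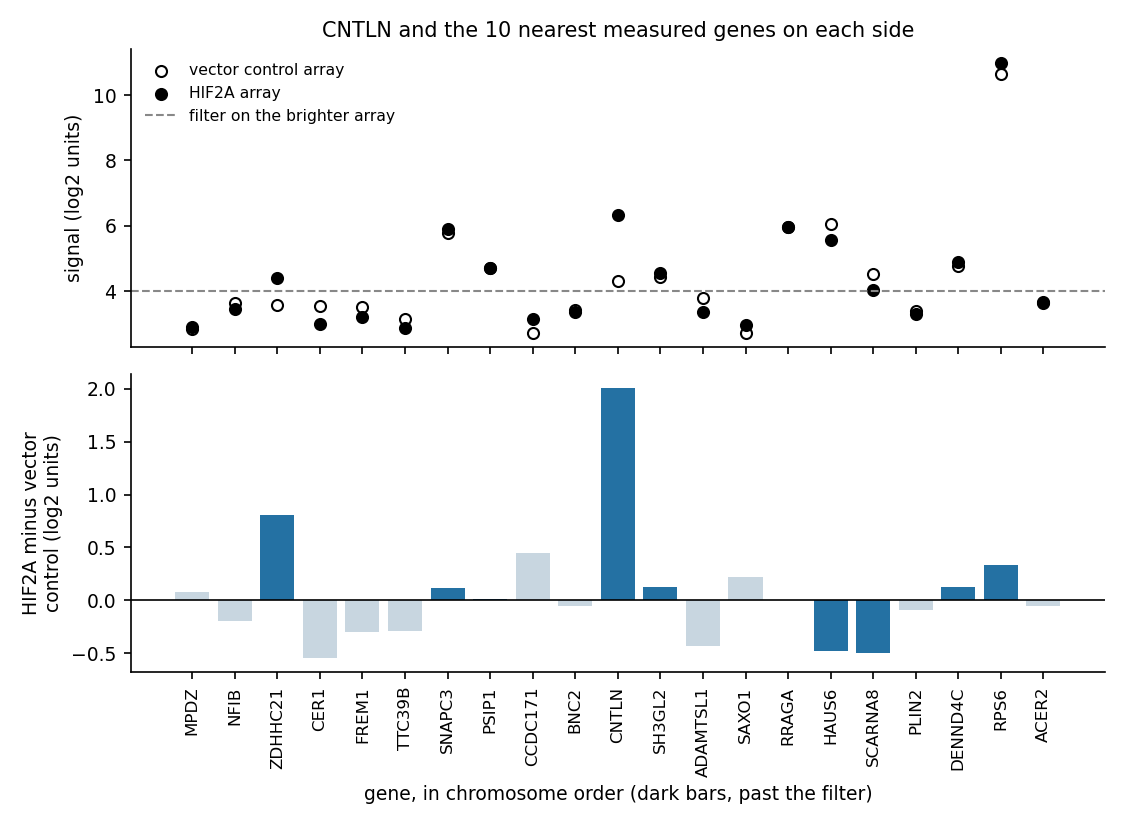
Signals in log2 units (top, open circles for the vector control array and filled for the HIF2A array) and differences in log2 units (bottom, HIF2A minus vector control) of CNTLN and the 10 nearest measured genes on each side, in chromosome order. CNTLN at 2.01 is flanked by BNC2 at -0.05 and SH3GL2 at 0.13, and the next highest bar is ZDHHC21 at 0.81.

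The 49 members lie on 22 chromosomes, and for 6 of the 40 past the filter the neighbours' median was at least 0.2 in size. PLK4 and CEP44 lie on chromosome 4 among genes with lower signals in the HIF2A array, with neighbours' medians of -0.54 and -0.61 beside their own differences of -0.68 and -0.29. After subtraction PLK4 was at -0.14 and CEP44 at 0.32. CETN3 and CEP120 lie on chromosome 5 among genes with higher signals, with neighbours' medians of 0.20 and 0.22. CEP120 followed them, at 0.41, while CETN3 lay opposite, at -0.71, and came to -0.91 after subtraction. NINL, on chromosome 20, had -0.51 beside -0.22, and CEP164, on chromosome 11, had 0.01 beside 0.24. The neighbours of CEP55 had a median of 0.08 and those of CEP95 one of 0.04, against differences of -0.62 and -0.59. With the neighbours' median subtracted, CNTLN at 1.89 and STIL at 0.60 remained at least 1.5-fold higher, and CEP97 came to 0.55. The 3 genes CETN3, CEP55 and CEP95 remained at least 1.5-fold lower. These were 2 and 3 of 40 members, beside 557 higher and 607 lower of all 11456 genes treated in the same way. What these shared shifts come from was not tested.

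**Figure D5:**
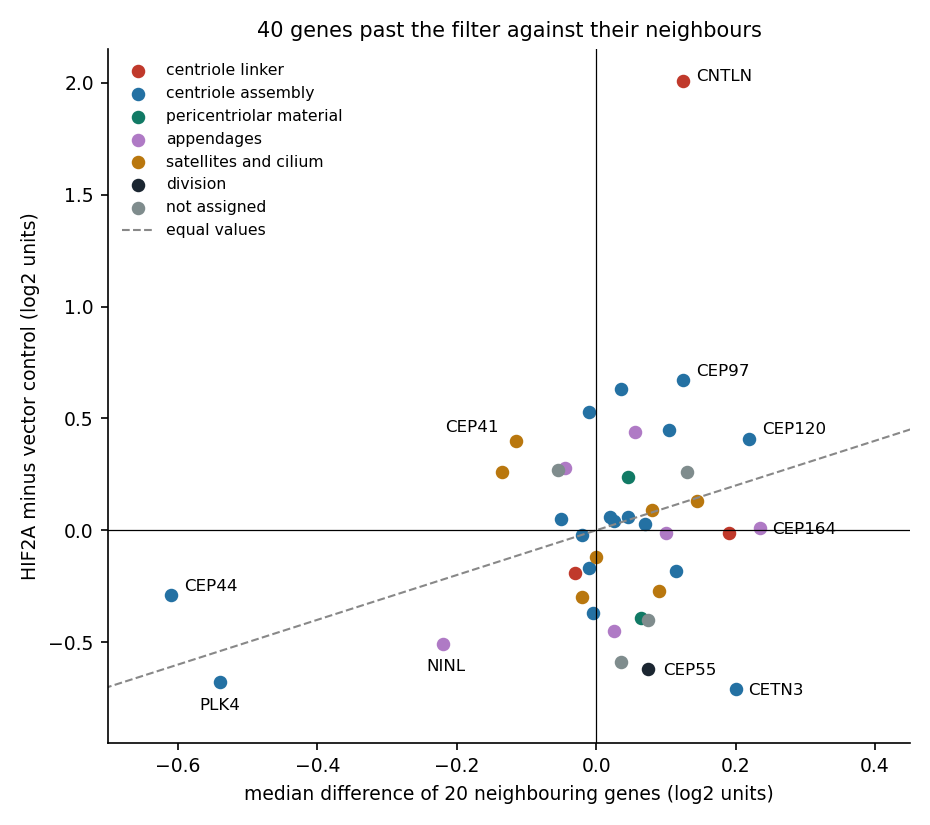
Difference of each of the 40 genes past the filter (vertical axis, HIF2A minus vector control, log2 units) against the median difference of its 20 neighbouring genes (horizontal axis, log2 units), coloured by role, with a dashed line of equal values. PLK4 at -0.68 lies near the line, CETN3 at -0.71 lies far below it, and CNTLN at 2.01 lies far above it.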

How the data were processed

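The authors deposited log2 signals per probe set for 2 arrays, and the submitters' processing notes name Affymetrix Expression Console, with its algorithm, version and background correction not given in the sources used here. That the base is 2 was inferred from the maximum of 13.97, above the 11.09 a natural log of 16-bit readings could reach. Of 28869 probe sets 19310 carry 1 gene symbol in the platform annotation; the 1752 with several and 7807 with none were left out. A gene took its brightest probe set, and each of the 49 members has only 1. Gene order came from RefSeq (GRCh38.p14); the build of the annotation is not given, so only RefSeq promoters carry coordinates.

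With 1 array per group, values are described without a test, and their number limits precision. Members, lists and alternatives were chosen with earlier results of these data known. Any member could be named. In other lists, cell type markers apart, the 2 largest differences each way past the filter were named. Also named were NEK2, CROCC, LRRC45, the linker pseudogenes, EPAS1, 3 genes on each side of CNTLN, and a few genes picked after their values were seen. Of the plasma cell markers all past the filter were named, and of the markers of other cell types none. Alternatives were quantile normalization, median and loess centring (span 0.3, 3 passes), an offset of 32 on the linear scale, filtering at the 25th or 75th percentile or not at all, the mean or dimmest probe set, 3-fold, and subtraction of the median of 20 neighbours. Code was tested on simulated data. Python 3.11.15, numpy 2.4.6, pandas 2.3.3, statsmodels 0.14.6 and matplotlib 3.10.9 were used.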

Additional observations from a re-analysis of the deposited data

Results flagged for a closer look

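A probe set left out of the gene values because it lists both SNORD42B, a small nucleolar RNA gene, and CEP164 was measured at 6.96 in the vector control and 6.26 in the HIF2A array, above the olfactory receptor level of 3.58, with a difference of -0.70. The probe set of CEP164 alone differed by 0.01. Which of the listed genes gives the signal was not tested.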

How the results depend on the processing

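With 1 array per group no replicate could be left out. CNTLN was at least 2-fold higher under all 10 alternatives (3 scalings, an offset, 3 filters, 2 probe set choices, neighbours), and also passed 3-fold; its difference ran from 1.11, with 32 added, to 2.03. The probe set settings could not change a member, and the filters only choose which genes enter. Of 178 counts and medians under alternatives, 157 moved by at most 1.5 times (counts) or by less than 0.1 log2 units (medians), and 21 did not stay within these limits. With 32 added, which shrinks dim genes, 1 of 40 members was at least 1.5-fold higher and 0 lower. Of all 11422 genes past the filter in that setting, 138 were at least 1.5-fold higher and 143 lower. The medians there were 0.089 for the other linker genes and 0.13 for the gamma-tubulin complex. With the filter at the 75th percentile, which 17 members passed, 1 was at least 1.5-fold higher and 3 lower. Of all 6100 genes past that filter, 424 were at least 1.5-fold higher and 355 lower. The medians under this filter were -0.12 for the members, -0.15 without CNTLN, -0.18 for centriole assembly and 0.28 for appendages. They were -0.16 for other centriole genes, 0.05 for mitotic kinases and -0.18 for ciliary transport. Without a filter and at the 25th percentile, the other linker genes had 0.065 and mitotic kinases 0.05. After subtracting neighbours, the medians were -0.16 for the linker members, -0.17 for appendages, -0.015 for satellites and cilium, 0.025 for the other linker genes and -0.10 for G2 and M phase. So the medians of the members, centriole assembly, appendages and several lists have no settled sign. Of 490 single values 3 moved by the robust SD or more: CNTLN with 32 added, and PLK4 at -0.14 and CEP44 at 0.32 after subtracting neighbours.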

Other observations

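The augmin complex, which branches microtubules inside the spindle, was picked after its values were seen. Of its subunit genes 7 were measured, 5 lower and 2 higher in the HIF2A array, with differences from -0.88 to 0.31 and a median of -0.09, each gene by its brightest probe set. HAUS8 had 5.77 in the vector control and 4.89 in the HIF2A array. HAUS6, near CNTLN on chromosome 9, had 6.05 and 5.57 on its brighter probe set and 5.05 and 5.64 on the other, so its probe sets disagree in direction and its difference has no settled sign. SCARNA8, a small Cajal body RNA that lies next to HAUS6 in the gene order, had 4.53 and 4.03. Genes named CEP that the rule leaves out were CEP170B, with 5.60 and 5.71, and CEP295NL and CEP85L, which did not pass the filter.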
